A study of Mus musculus with 7 samples.

Results

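The piRNA pathway and nuage genes examined here were 10 listed genes: the PIWI genes *Piwil1*, *Piwil2* and *Piwil4*, the Tudor domain genes *Tdrd1*, *Tdrd5* and *Tdrd9*, the RNA helicase genes *Ddx4* and *Mov10l1*, and *Mael* and *Asz1*. They were chosen by name, and each was matched by its Ensembl identifier among 21928 genes. All 10 were among the 13630 genes that passed the filter on low values, a TPM (a level corrected for transcript length and scaled to the same total in each library) that reached 1 in 3 or more of the 7 libraries. *Piwil1* passed with the lowest level of the 10, reaching that TPM in 2 wild-type libraries and in all 3 null libraries.

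RNA was sequenced from testes of C57BL/6N mouse pups, 4 wild type (WT) and 3 *Meioc*-null (KO), with 1 library per pup made from 1.5 testes. All pups, of both genotypes, received WIN18446, which blocks the synthesis of retinoic acid, daily at 0.1 mg per g body weight from postnatal day 2 to 8, and retinoic acid at 0.0125 mg per g on day 9. Testes were collected 6.75 days after retinoic acid, when synchronized germ cells are enriched for the preleptotene stage, the last step before meiotic prophase. The tissue was the whole testis, so somatic cells are in every library, and the null pups carried the *Meioc* tm1.1Dpc allele, which still gave reads from the gene.

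PIWI proteins bind piRNAs, small RNAs of the germ line that guide the silencing of transposons. In the mouse testis, piRNAs are made and loaded in nuage, the germ granules beside the nucleus and mitochondria, where Tudor proteins bind the methylated arginines of PIWI proteins and helicases handle the RNA. Nuclear *Piwil4* protein directs DNA methylation of transposons in fetal germ cells, whereas *Piwil1* protein carries the abundant piRNAs of pachytene spermatocytes and spermatids.

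*Mael* was higher in wild type, by 0.36 on the log2 scale (SE 0.068, 1.28-fold), whereas *Piwil4* and *Tdrd5* were lower in wild type, with null levels 1.74-fold and 1.51-fold those of wild type. The other 7 genes were not called at an adjusted p under 0.05 (edgeR quasi-likelihood test with Benjamini-Hochberg adjustment over all tested genes). Thus 3 of 10 genes were called, against 11.1% of all tested genes, with 1 higher in wild type (background 7.77%) and 2 lower (background 3.33%). The CPM (TMM-normalized counts scaled to library size) of the groups did not overlap for 6 of 10 genes, against 26.2% of all tested genes. The median log2 fold change, wild type over null, was 0.069 over the 10 genes and -0.0065 over all tested genes, with 6 of the 10 above 0. In a bulk sample, fewer cells of a type and less RNA per cell cannot be told apart.

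**Figure D1:**
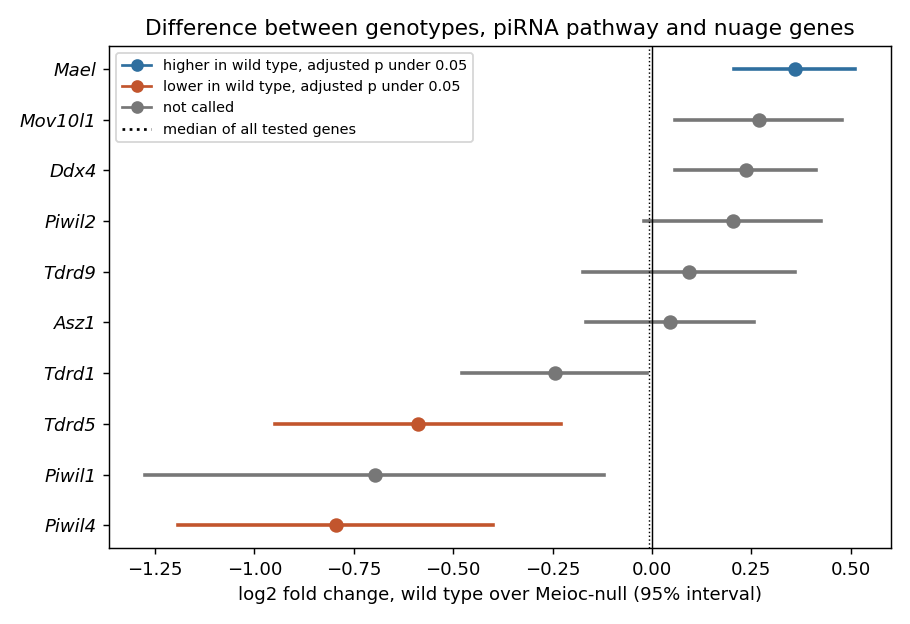
The log2 fold change of each gene, wild type over *Meioc*-null, is plotted with its 95% interval from the edgeR fit, in colour where the adjusted p was under 0.05. *Mael* lies above 0 at 0.36, and *Piwil4* (-0.80) and *Tdrd5* (-0.59) lie below it.

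The plot of fold changes by gene orders the members from *Mael* to *Piwil4*. *Piwil1*, at -0.70, had the widest interval, from -1.28 to -0.12, and was not called. The intervals of *Piwil2*, *Tdrd9* and *Asz1* held 0.

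The choice of scale moved these values. With TPM in place of normalized counts (limma on log2(TPM + 1)) the median of all tested genes shifted to -0.23 and 17.5% of called genes had the higher level in wild type, against 70.0% with TMM and 47.5% with no scaling beyond library size. On the TPM scale *Piwil4* and *Tdrd5* were still called lower in wild type (adjusted p = 0.0239 and 0.0318) and *Mael* was not called, at 0.12 (adjusted p = 0.314). Relative to the median of all genes on that scale, the *Mael* value was 0.34, *Piwil4* -0.67 and *Tdrd5* -0.54.

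Library totals ran from 12537852 to 20552702 estimated counts, so that 3 counts equal 0.146 to 0.239 CPM, far below every member. *Meioc* itself ranged from 466 to 718 CPM in the wild-type pups, against 299 to 412 CPM in the null pups (log2 fold change 0.76, SE 0.16, edgeR adjusted p = 0.0207). The germ cell marker *Dazl* was 1.50-fold higher in wild type (0.58, SE 0.093, adjusted p = 0.0112). Summed TPM of the germ cell markers was 1703 to 1927 in wild type and 1344 to 1455 in null libraries, with 3 of 4 tested genes called higher, and *Dazl* and *Taf7l* making up most of the sum. *Dnd1*, the other tested germ cell marker, was at -0.76 on the log2 scale and not called (adjusted p = 0.0571), with mean TPM of 6.24 in wild type and 12.4 in null libraries. Leptotene and zygotene markers summed to 1997 to 2375 and 1213 to 1425 (4 of 5 called higher), and preleptotene markers to 305 to 724 and 134 to 269.9 (1 of 2). The sum of undifferentiated spermatogonia markers went the other way, at 29.3 to 40.5 and 47.8 to 85.0. Most of that difference came from *Zbtb16*, with mean TPM of 15.4 in wild type and 35.5 in null libraries. *Zbtb16* was called lower in wild type (-0.86, adjusted p = 0.0213), and in 3 of the 7 fits that left out 1 library. *Gfra1* (-0.14), *Etv5* (-0.47) and *Id4* (0.15) were not called, and *Nanos2* was below the filter. Sums of Sertoli (622 to 721 and 691 to 814) and Leydig cell markers (377 to 553 and 483 to 663) overlapped, while those of myoid cells (317 to 361 and 384 to 418), endothelium (23.7 to 28.6 and 29.4 to 36.4) and macrophages (28.7 to 34.0 and 35.9 to 43.5) were higher in every null library on the TPM scale, where the median of all genes lay at -0.23. In the edgeR fit, 1 of 4 myoid genes (*Des*, -0.37, adjusted p = 0.0493) was called lower in wild type, and the adjusted p of every endothelium and macrophage marker was 0.118 or above. The part of these markers in the results for the piRNA genes was not tested. Differentiating spermatogonia (137 to 189 and 139 to 159) and pachytene marker sums (38.0 to 47.5 and 35.7 to 41.6) overlapped. Of the former, 1 of 5 genes was called higher in wild type (*Kit*, 0.55, edgeR adjusted p = 0.0175), and of the latter 1 of 2 tested (*Hspa2*). All 5 spermatid markers were below the filter, summing to 0.681 to 2.48 and 0.184 to 1.54. Of these, *Prm1*, *Prm2* and *Tnp2* were listed at 0 in every library, while *Tnp1* reached 1.90 TPM and *Acrv1* 0.724 TPM.

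Promoter windows from RefSeq (GRCm38.p6), each 300 bases from 250 before to 50 after a start site, matched 9 of the 10 genes, all but *Piwil2*. A window of each of the 3 called genes and that of *Ddx4*, which held both an E2F site and an E-box, are shown, a choice made with the calls known. The other window of *Piwil4*, at chr9:14718338-14718637, is not shown. Whether the motifs of a window go with the direction of a change was not tested. Capitals mark matches to the E2F site GCGGGAA or to the E-box CACGTG, on either strand; other letters are in lower case. The windows are on the minus strand, *Piwil4* at chr9:14740623-14740922, *Tdrd5* at chr1:156303299-156303598, *Mael* at chr1:166238695-166238994 and *Ddx4* at chr13:112652261-112652560.
Piwil4: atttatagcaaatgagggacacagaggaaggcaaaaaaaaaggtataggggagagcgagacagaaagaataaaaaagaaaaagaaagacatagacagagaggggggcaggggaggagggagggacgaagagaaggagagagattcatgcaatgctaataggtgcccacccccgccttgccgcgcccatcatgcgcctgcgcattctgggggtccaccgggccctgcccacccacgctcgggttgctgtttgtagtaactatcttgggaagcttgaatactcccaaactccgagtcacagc
Tdrd5: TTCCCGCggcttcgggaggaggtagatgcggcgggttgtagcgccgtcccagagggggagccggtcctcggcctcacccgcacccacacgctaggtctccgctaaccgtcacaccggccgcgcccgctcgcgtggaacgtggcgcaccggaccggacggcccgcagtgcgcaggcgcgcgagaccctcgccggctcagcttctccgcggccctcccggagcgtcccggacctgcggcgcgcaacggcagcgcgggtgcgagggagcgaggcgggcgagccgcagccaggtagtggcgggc
Mael: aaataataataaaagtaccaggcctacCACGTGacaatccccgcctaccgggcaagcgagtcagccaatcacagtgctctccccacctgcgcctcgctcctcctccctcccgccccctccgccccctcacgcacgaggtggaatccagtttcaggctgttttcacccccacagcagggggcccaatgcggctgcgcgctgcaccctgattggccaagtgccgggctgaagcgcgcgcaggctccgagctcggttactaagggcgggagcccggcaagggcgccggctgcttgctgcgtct
Ddx4: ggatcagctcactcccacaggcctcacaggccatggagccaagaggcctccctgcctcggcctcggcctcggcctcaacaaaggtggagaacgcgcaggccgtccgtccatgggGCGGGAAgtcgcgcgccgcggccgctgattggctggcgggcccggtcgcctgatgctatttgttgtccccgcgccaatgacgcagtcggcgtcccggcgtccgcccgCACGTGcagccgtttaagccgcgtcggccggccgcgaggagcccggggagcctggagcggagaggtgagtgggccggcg

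The motifs were searched on both strands in all 32851 windows. The E2F site GCGGGAA was in 4.6% of all windows and in 2 of 12 member windows, those of *Tdrd5* and *Ddx4*. The E-box CACGTG was in 7.15% of all windows and in 7 of 12 member windows, from *Piwil1*, *Tdrd1* (2 overlapping windows), *Tdrd9*, *Ddx4*, *Mov10l1* and *Mael*. The STRA8 motif CNCCTCAG was in 7.94% of all windows and, among members, in *Mov10l1* and *Asz1*, and the MYB site CAGTTG was in 13.65% and in *Piwil1*. *Piwil4* had no match in either of its windows. A match describes the letters of the window and was not tested as a binding site.

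*Mael*, at chromosome 1, 166201201 to 166238747, minus strand (GRCm38), encodes a nuage protein needed for transposon silencing in germ cells. Its CPM was 195, 212, 201 and 199 in the wild-type libraries and 157, 161 and 155 in the null libraries, so the groups did not overlap and each spread was narrow. Means were 202.0 ± 7.27 (SD, n = 4) and 158 ± 3.06 (SD, n = 3), a log2 fold change of 0.36 (95% interval 0.21 to 0.51, edgeR adjusted p = 0.0172). *Mael* had the highest TPM of the 10 genes, at 283 in wild type and 262 in null libraries, and ranked 443 by TPM among tested genes. Here the groups overlapped: the TPM of null replicate 2, 290.5, was above 3 of the 4 wild-type libraries. Leaving out 1 library at a time gave 0.33 to 0.37, and the call was lost without wild-type replicate 2 (adjusted p = 0.0591), wild-type replicate 3 (0.0564) or null replicate 3 (0.0706).

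**Figure D2:**
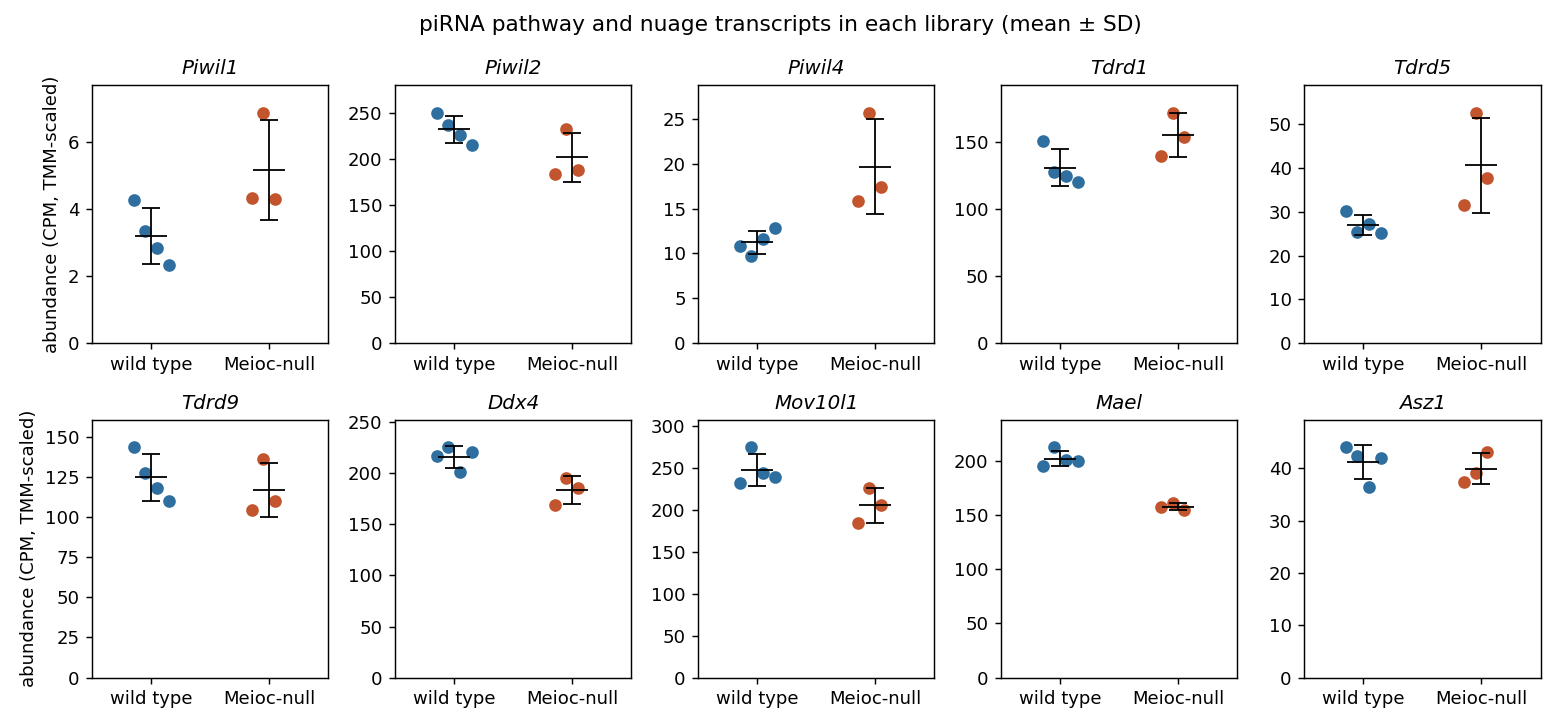
The TMM-normalized CPM of each gene is plotted by library, wild type and *Meioc*-null, with 1 point per pup and the mean ± SD as bars, on a separate axis from 0 for each gene. *Piwil1*, *Piwil4*, *Tdrd5*, *Ddx4*, *Mov10l1* and *Mael* show no overlap between genotypes, and null replicate 2 is the highest null library for 9 of 10 genes.

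Of the PIWI genes, only *Piwil4* was called. In the plot of CPM by library, *Piwil4* was 10.9, 9.76, 11.6 and 12.8 CPM in the wild-type pups and 15.9, 25.7 and 17.4 CPM in the null pups. Each null library lay above all wild-type libraries, and null replicate 2 stood well above the other two. The fitted log2 fold change was -0.80 (SE 0.18, 95% interval -1.19 to -0.40, edgeR adjusted p = 0.0237). Without null replicate 2 it was -0.56 with an adjusted p of 0.0618, and the call was also lost without wild-type replicate 2 (-0.73, adjusted p = 0.0709), wild-type replicate 3 (0.0671) or null replicate 3 (0.0680). *Piwil4* is at chromosome 9, 14696230 to 14740733, minus strand (GRCm38).

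*Piwil1* was at the floor of the filter, with 42 to 95 estimated counts per library and mean TPM of 1.06 in wild type and 2.07 in null libraries. Its CPM was 4.26, 3.35, 2.83 and 2.31 in wild type and 4.31, 6.86 and 4.29 in null libraries, with no overlap but with the highest wild-type library just under the lowest null library. Its log2 fold change, -0.70 (SE 0.26), was not called (adjusted p = 0.106). Of the 5 pachytene markers, *Pgk2* (0 to 0.0795 TPM), *Acr* (0 to 0.479) and *Ldhc* (0.342 to 0.552) were below the filter, *Clgn* was 7.28 to 10.3 TPM and not called, and *Hspa2* was 27.5 to 39.7 TPM and called higher in wild type (0.53, edgeR adjusted p = 0.0335). *Piwil1* is at chromosome 5, 128702524 to 128755474, plus strand.

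*Piwil2*, whose protein is the PIWI partner of early piRNA production, was the most abundant PIWI gene, at a mean TPM of 62.1 in wild type and 64.9 in null libraries. Its CPM was 250.2, 237, 225 and 216 in wild type and 184, 233 and 188 in null libraries. Null replicate 2 fell inside the wild-type range, and the other null libraries lay under it. A log2 fold change of 0.20 (95% interval -0.019 to 0.43) was not called (edgeR adjusted p = 0.201), and on the TPM scale it was -0.050, or 0.18 relative to the median of all genes. *Piwil2* is at chromosome 14, 70372477 to 70429383, minus strand.

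The fold changes of the PIWI genes were compared with each other within each library. Against *Piwil2*, the log2 difference between genotypes was -0.98 for *Piwil4* and -0.88 for *Piwil1*, neither with overlap between the groups. A two-sided exact permutation test gave p = 0.0571 for each, the smallest that 4 against 3 libraries allow, and 0.0857 after Benjamini-Hochberg adjustment over the 3 pairs. For *Piwil1* against *Piwil4* the difference was 0.10 (exact p = 0.8), with overlapping groups.

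Among the Tudor genes, *Tdrd5*, whose protein is needed for nuage and retrotransposon silencing, was 30.2, 25.3, 27.3 and 25.2 CPM in the wild-type pups, against 31.6, 52.7 and 37.6 CPM in the null pups. The lowest null library was just above the highest wild-type library, and null replicate 2 was far above both. Its log2 fold change was -0.59 (SE 0.16, 95% interval -0.95 to -0.23, edgeR adjusted p = 0.0450). It was -0.36 without null replicate 2 (adjusted p = 0.110), and the call was also lost without wild-type replicate 2, 3 or 4 (adjusted p = 0.114, 0.103 and 0.0998) or null replicate 3 (0.0936). Mean TPM was 12.1 in wild type and 21.9 in null libraries. *Tdrd5* is at chromosome 1, 156255296 to 156303664, minus strand.

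*Tdrd1*, which encodes a nuage scaffold that binds PIWI proteins, was 151, 128, 124 and 119.7 CPM in the wild-type pups, against 139, 172 and 153 CPM in the null pups. Wild-type replicate 1 lay inside the null range, so the groups overlapped. A log2 fold change of -0.24 (95% interval -0.48 to -0.012) was not called (edgeR adjusted p = 0.148), but was called without wild-type replicate 1 (adjusted p = 0.0496) and on the TPM scale at -0.47 (adjusted p = 0.0483), or -0.25 relative to the median of all genes. *Tdrd1* is at chromosome 19, 56826209 to 56870012, plus strand.

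*Tdrd9*, an RNA helicase with a Tudor domain, was 143, 127, 118 and 109.9 CPM in the wild-type pups, against 105, 136 and 109.8 CPM in the null pups, so the groups overlapped. The log2 fold change was 0.094 (95% interval -0.17 to 0.36, edgeR adjusted p = 0.627), and it was -0.14 on the TPM scale, or 0.082 relative to the median there. *Tdrd9* is at chromosome 12, 111971559 to 112068854, plus strand.

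Both helicase genes were higher in every wild-type library than in any null library in CPM, without being called. *Ddx4*, the mouse Vasa homologue that marks germ cells, was 217, 225, 201 and 221 CPM in the wild-type pups, against 169, 196 and 186 CPM in the null pups. The log2 fold change was 0.24 (95% interval 0.058 to 0.41, edgeR adjusted p = 0.0813). *Mov10l1*, which encodes the helicase that feeds piRNA precursors into processing, was 231, 274, 244 and 239 CPM in the wild-type pups, against 184, 226 and 205 CPM in the null pups. Its log2 fold change was 0.27 (95% interval 0.059 to 0.48, adjusted p = 0.0905). In TPM the groups overlapped for both, with means of 137 and 140.2 for *Ddx4* and 87.1 and 86.6 for *Mov10l1*. Both were called by DESeq2 on all genes, at 0.24 and 0.27, and *Ddx4* was -0.030 on the TPM scale, or 0.195 relative to the median there. *Ddx4* is at chromosome 13, 112598333 to 112652475, minus strand, and *Mov10l1* at chromosome 15, 88982909 to 89055152, plus strand.

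*Asz1* encodes a mitochondrial membrane protein that anchors nuage. Its CPM was 44.0, 42.2, 36.4 and 42.0 in wild type and 37.4, 39.1 and 43.1 in null libraries, which are intermixed. The log2 fold change of 0.045 (95% interval -0.17 to 0.26) was not called (edgeR adjusted p = 0.776), and it was below 0 with no scaling (-0.030), on the TPM scale (-0.22, or 0.0029 relative to the median there) and without null replicate 1. *Asz1* is at chromosome 6, 18050964 to 18109061, minus strand.

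Per length, the order of mean wild-type TPM was *Mael*, *Ddx4*, *Mov10l1*, *Asz1* and *Piwil2*, then *Tdrd1*, *Tdrd9*, *Tdrd5*, *Piwil4* and *Piwil1*. *Asz1* (52.9 to 72.5 TPM) and *Piwil2* (56.6 to 73.5) were within each other's spread, as were *Tdrd1* (32.0 to 44.4) and *Tdrd9* (28.5 to 41.4). *Mael*, *Ddx4* and *Mov10l1* did not overlap with the gene next to them in wild type. The null means followed the same order. Summed over the 10 genes, TPM was 718 ± 53.8 (SD, n = 4) in wild type and 747 ± 109 (SD, n = 3) in null libraries, with null replicate 2 at 872.

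Null replicate 2 was the highest null library for 9 of 10 genes, the exception being *Asz1*, and the highest of all 7 libraries for *Piwil1*, *Piwil4*, *Tdrd1* and *Tdrd5*. In the same library the undifferentiated spermatogonia markers summed to 85.0 TPM, against 47.8 and 51.6 in the other null libraries, and *Zbtb16* was 53.5 TPM, against 24.2 and 28.8. The Sertoli marker *Sox9* was also highest there, at 36.1 TPM against 17.4 and 20.8, though the Sertoli sum was 814, against 812 and 691. Germ cell markers summed to 1344, against 1412 and 1455. Over all tested genes, null replicate 2 had the lowest correlation of the null libraries with each wild-type library (0.9535 to 0.9662). The source of its levels was not tested. Wild-type replicate 1 was the highest wild-type library for 6 of 10 genes. Over all tested genes its correlation with null replicate 1 was 0.9807, inside its range with the other wild-type libraries (0.9769 to 0.9812).

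**Figure D3:**
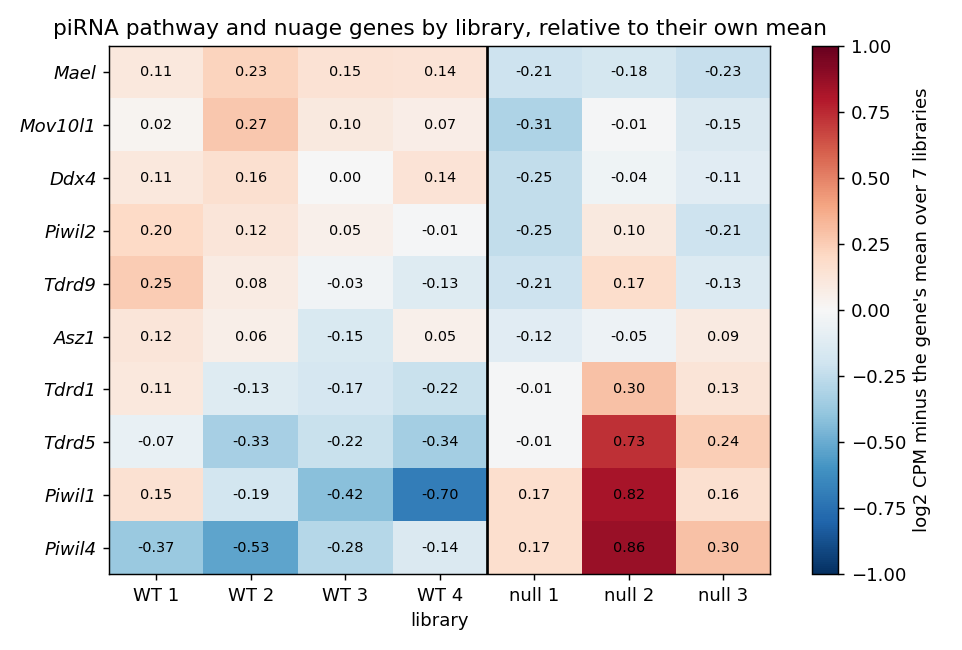
A heat map shows log2 CPM of each gene in each of the 7 libraries after centring the gene on its mean over libraries. *Piwil1*, *Piwil4* and *Tdrd5* are highest in null replicate 2, and *Mael* is higher in the 4 wild-type libraries than in the 3 null libraries.

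In the heat map of centred levels, the mean over the 10 genes was 0.062, -0.026, -0.099 and -0.12 in wild-type replicates 1 to 4 and -0.10, 0.27 and 0.0085 in null replicates 1 to 3. The genes most like this mean over the 7 libraries, by root mean square difference in log2 CPM, were *Rictor* (0.0306), *Hjurp* (0.0386), *Chd6* (0.0391), *Mib1* (0.0409) and *Polr3e* (0.0418). Since the mean itself was highest in null replicate 2, genes chosen to match it were too.

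Relative to *Dazl* within each library, which itself was called higher in wild type, every member's mean log2 ratio was lower in wild type than in null libraries. The median difference of all 13629 tested genes other than *Dazl* on this scale was -0.59, and the values of the members are read against it. The members' differences ran from -1.36 (*Piwil4*), -1.26 (*Piwil1*), -1.15 (*Tdrd5*) and -0.83 (*Tdrd1*), below that median, to -0.54 (*Asz1*), -0.49 (*Tdrd9*), -0.38 (*Piwil2*), -0.35 (*Ddx4*), -0.32 (*Mov10l1*) and -0.23 (*Mael*), above it. The groups did not overlap for 7 of 10 members, all lower in wild type, against 72.2% of those genes. These 7, all but *Mov10l1* (exact p = 0.114), *Piwil2* and *Tdrd9* (both 0.171), were at the smallest exact permutation p, 0.0571, and 0.0816 after Benjamini-Hochberg adjustment over the 10 genes, which share the *Dazl* values. Without null replicate 2, 5 of the differences moved by over 1.5 times, *Mael* to -0.12, *Mov10l1* to -0.15, *Piwil2* to -0.17, *Ddx4* to -0.21 and *Tdrd9* to -0.28. *Dazl* itself was 640 CPM in that library, against 781 and 785 CPM in the other null libraries, and every ratio there shares this value. The median of all genes without null replicate 2 was not taken, so these moves are not set apart from a shift of all genes.

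Transcript estimates were split for 7 genes, while *Piwil2*, *Tdrd9* and *Asz1* had 1 transcript. *Tdrd1* had the widest range: Tdrd1-202, which starts at chr19 position 56830712, held 100, 100, 79.5 and 37.9% of the gene's TPM in wild type and 82.7, 51.7 and 51.4% in null libraries. The remainder was nearly all Tdrd1-204, which starts upstream at 56826286. The null range lay inside the wild-type range. Tdrd5-204 held 41.0 to 66.9% of *Tdrd5* TPM, Mael-201 94.2 to 98.9%, and Piwil4-203 91.8 to 100% over all libraries. Reads of 50 bases were divided between transcripts that share most of their sequence, so these shares are estimates.

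**Figure D4:**
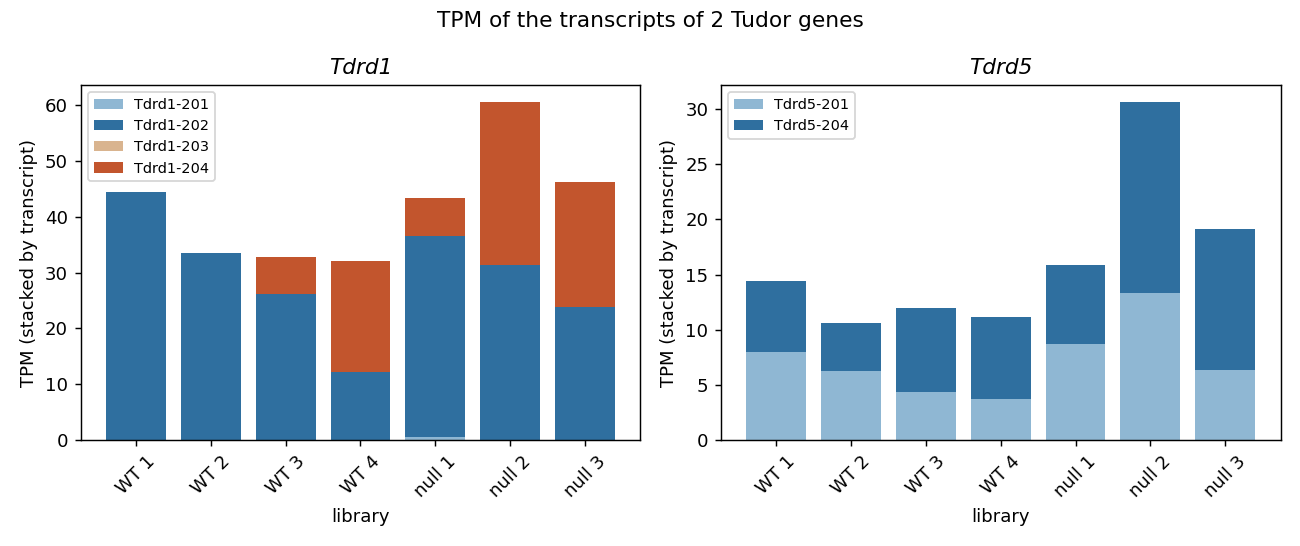
Stacked bars from 0 give the TPM of each transcript of *Tdrd1* (left) and *Tdrd5* (right) in each of the 4 wild-type and 3 null libraries, with colours for transcripts. Tdrd1-204 is at or near 0 TPM in wild-type replicates 1 and 2 and reaches 29.3 TPM in null replicate 2, where both transcripts of *Tdrd5* are also highest.

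In the stacked bars of transcript TPM, the share of the leading transcript overlapped between genotypes for both *Tdrd1* and *Tdrd5*, and both *Tdrd5* transcripts contributed in every library. The tests used the gene sums, not single transcripts.

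Other genes of the pathway were read from the same fit, 34 by name with 33 tested. Of these, 8 had a called difference toward wild type and 2 toward null, 30.3% in all, against 11.1% of all tested genes called, 7.77% higher and 3.33% lower in wild type. Their median log2 fold change was 0.062, against -0.0065 over all tested genes. Biogenesis and nuage genes gave 6 of 15 called higher (40%, background 7.77%) and 0 lower (background 3.33%) by edgeR, with a median of 0.19. At an unadjusted p under 0.05, 7 were higher and 0 lower, a threshold for which no share over all genes was taken. DESeq2 on the same genes also called 6 and 0. Over the whole table it called 2331 of 13630 genes, 62.5% of them higher in wild type. On the TPM scale limma called 4 and 0, with 5 higher and 2 lower at an unadjusted p under 0.05. Over the whole table it called 2522 genes, 17.5% of them higher in wild type.

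*Gpat2*, which encodes a mitochondrial acyltransferase-like protein that takes part in primary piRNA production, had the largest change of the list: 103 ± 19.5 CPM (SD, n = 4) in wild type and 39.9 ± 7.81 (SD, n = 3) in null libraries, a log2 fold change of 1.38 (SE 0.18, edgeR adjusted p = 0.00515). *Stk31* (0.83), *Tdrkh* (0.66), *Rnf17* (0.61), *Gtsf1* (0.42) and *Fkbp6* (0.41) were also called higher. *Tdrkh* encodes a Tudor protein of mitochondria that trims piRNAs together with *Pnldc1* protein, and it was called in all 7 leave-one-out fits, whereas *Gtsf1* (adjusted p = 0.0498) was called in 0 and *Fkbp6* in 4. *Pld6*, the lowest of the group at -0.36, was not called and had only 30 to 72 counts per library. *Tdrd6* was below the filter, with 0.516 CPM in the wild-type pups against 0.924 in the null pups.

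Of 7 nuclear silencing genes, 1 was called higher (14.3%, background 7.77%) and 2 lower (28.6%, background 3.33%) in wild type, with a median of -0.28. The CPM of the groups did not overlap for 6 (85.7%, background 26.2%). *Tex15*, whose protein acts in piRNA-directed silencing in the nucleus, averaged 2345 CPM in wild type against 1382 CPM in the null pups (0.76, edgeR adjusted p = 0.0104). *Spocd1*, which joins *Piwil4* protein to DNA methylation, averaged 14.0 CPM in wild type against 24.5 CPM in the null pups (-0.80, adjusted p = 0.0227), a fold change near that of *Piwil4*. *Morc1*, also needed for transposon silencing, averaged 46.4 CPM in wild type and 79.6 CPM in null libraries (-0.78, adjusted p = 0.0104). *Spocd1* was called in 2 and *Morc1* in 6 of the 7 leave-one-out fits. In null replicate 2 *Spocd1* was 32.3 CPM, against 20.7 and 20.4 CPM in the other null libraries. Without that library *Spocd1* was -0.55 (edgeR adjusted p = 0.0526) and *Morc1* -0.69 (0.0387). *Dnmt3l*, at -0.94, had the lowest value and was not called (edgeR adjusted p = 0.0650). It was near the floor of the filter, with 17 to 49 counts per library. Its TPM was 1.34, 1.64, 0.858 and 0.725 in wild type and 2.07, 3.21 and 2.28 in null libraries.

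**Figure D5:**
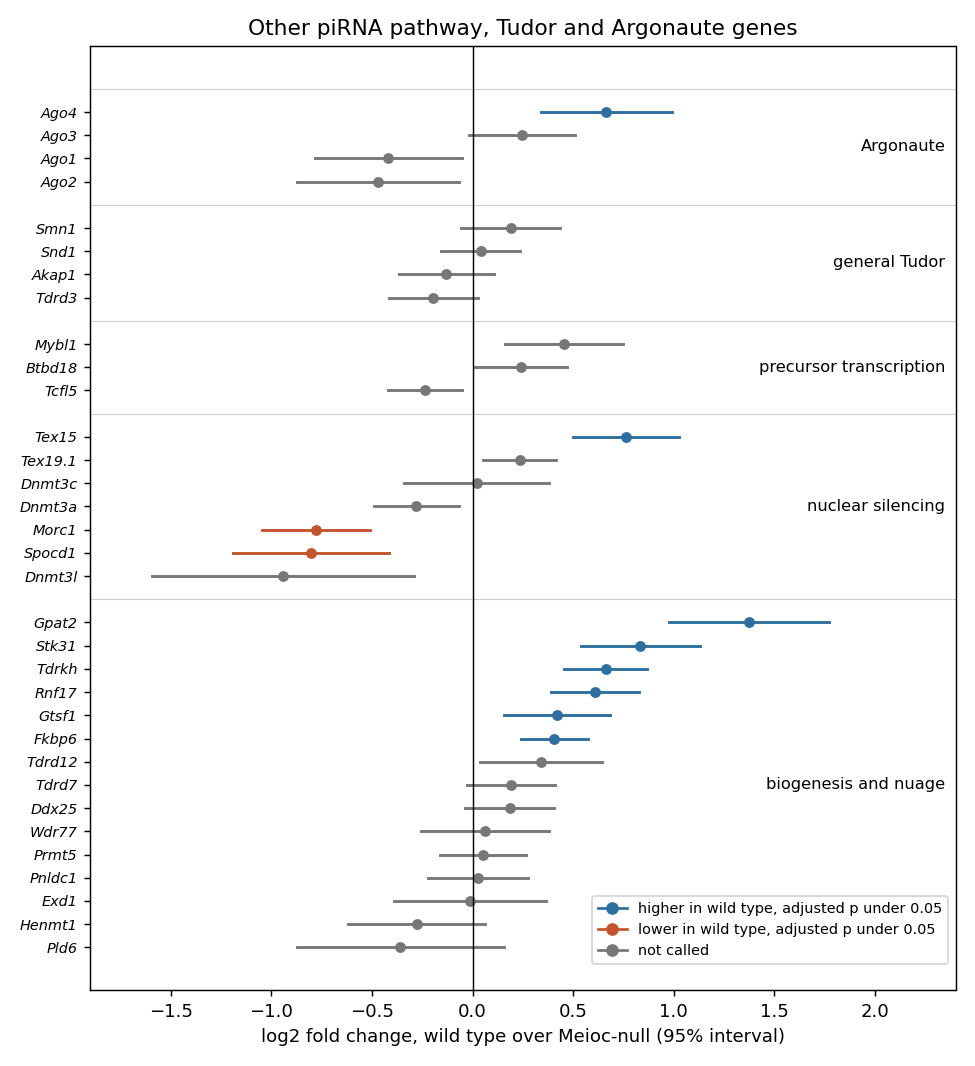
The log2 fold changes of the 33 tested other genes, wild type over *Meioc*-null, are plotted by group with 95% intervals, in colour where the adjusted p was under 0.05. *Gpat2* is highest at 1.38 and the called lower genes are *Morc1* and *Spocd1*.

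In the plot of the other pathway genes, none of the 3 regulators of piRNA precursor transcription was called by edgeR. All 3 had an unadjusted p under 0.05 (2 higher, 1 lower), again with no share over all genes taken, so this count cannot be judged against a background. DESeq2 on the same genes called 1 higher, where it called 2331 of 13630 genes over the whole table. On the TPM scale limma called 1 lower, where it called 2522 genes. *Mybl1*, the transcription factor of pachytene piRNA clusters, was 0.46 (SE 0.13, adjusted p = 0.0520), *Btbd18* 0.24 (adjusted p = 0.149) and *Tcfl5* -0.24 (adjusted p = 0.0877).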

How the data were processed

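RNA-seq libraries, each from the testes of 1 pup, came from 4 wild-type and 3 *Meioc*-null animals, so p-values measure the spread between pups. The authors prepared stranded, rRNA-depleted total RNA libraries, trimmed 50-bp single-end reads with cutadapt 1.8 and quantified GENCODE Basic vM15 transcripts with kallisto 0.44.0. The deposited files hold, for protein-coding transcripts, the estimated counts, with no normalization between libraries, and the TPM, which the authors scaled to the same total in each library. ERCC spike-ins were added but not used. The submitters' processing notes name mm10.

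Transcripts were matched to genes in GENCODE vM21 (GRCm38), and both quantities were added up over the transcripts of a gene. Of 43139 transcripts, 119 were unmatched, with 0.247% to 0.282% of the counts, and stayed out of library sizes and tests; the marker *Gcna* was among them and enters only the germ cell TPM sum. *Meiosin* was matched as Gm4969. Expected counts were rounded. Genes that reached a TPM of 1 in 3 or more of 7 libraries entered a quasi-likelihood fit (edgeR 4.0.16, R 4.3.3, TMM), without covariates, in place of the study's DESeq2, with Benjamini-Hochberg adjustment over 13630 genes and a threshold of 0.05. Fold changes are wild type over null, with 95% intervals from the standard error, and log2 CPM used a prior count of 2. Ratios within a library were tested by exact permutation over 35 splits (scipy 1.17.1). On simulated counts for this comparison, 84 of 97 genes changed by 1 on the log2 scale and 100 of 103 changed by 2 were recovered. There were 10 false calls among the genes left unchanged. Changes under 1, as fitted for all 10 members, were not simulated, so recovery at that size is not known.

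Genes named are the 10 members, the called, highest and lowest genes of each list of other pathway genes, *Meioc*, *Dazl* and the 5 genes most like the members. *Tdrd6*, *Btbd18* and single marker genes given with values are exceptions, picked once their values were known. The members and lists were chosen with earlier results of these data known. Alternatives were RLE or no scaling, DESeq2 1.42.0, other filters, limma 3.58.1 on log2(TPM + 1) or log2(TPM + 0.1), the replicate number as a block, and leaving out each library.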

Additional observations from a re-analysis of the deposited data

Results flagged for a closer look

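In 30 groups of 4 wild-type values, 3 had a library far from the others by Dixon's criterion, which chance alone passes in about 1 of 20 groups. *Piwil2* TPM was 73.45 in wild-type replicate 1, against 56.6 to 59.3 in the other wild-type libraries (gap over range 0.839). *Tdrd1* TPM was 44.41 in the same library, against 32.0 to 33.5 (0.878). The log2 ratio of *Piwil4* to *Dazl* was -6.87 in wild-type replicate 2, below the other wild-type libraries (0.929).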

How the results depend on the processing

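Of 160 alternative fold changes of the 10 genes, 128 kept both their direction and their side of the threshold, 17 lost a call, 5 gained one and 10 changed sign. Where a result moved, the cause was not tested. All 17 lost calls were of the called genes: *Piwil4* kept its call in 11 alternatives and lost it in 5, *Tdrd5* in 10 and 6, and *Mael* in 10 and 6. The rest of the 128 were of genes not called in the main fit, which kept their side by staying uncalled. The ratios to *Dazl* and the pairs of PIWI genes, where no test can pass 0.05, kept their direction in 103 of 104 alternatives. The exception was *Piwil1* relative to *Piwil4* (0.10, and -0.059 without wild-type replicate 1). Relative to *Dazl*, 94.2% of all other tested genes had a difference below 0. A kept direction on that scale is therefore shared by nearly all genes and says little of the members. The mean transcript shares moved by less than their SD over libraries in 56 of 56. Leaving out 1 library cannot move a mean that far, so this count does not show that the shares are stable. Genes called over the whole table numbered 1513, and 2331 with DESeq2 on the same genes, 2522 with limma on log2(TPM + 1), 2506 with log2(TPM + 0.1) and 131 to 2172 without 1 library; the lowest was without null replicate 3, with 275 without wild-type replicate 3, 296 without wild-type replicate 2, 353 without null replicate 2 and 542 without wild-type replicate 4.

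Members called higher numbered 1, but 3 with DESeq2 on all genes, 0 on either TPM scale and 0 to 1 without 1 library. Members called lower numbered 2, and 0 to 3 without 1 library. Other pathway genes called higher numbered 8, 5 on either TPM scale and 3 to 8 without 1 library; those called lower numbered 2, 4 with no scaling, 5 on either TPM scale and 0 to 4 without 1 library.

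On the log2(TPM + 1) and log2(TPM + 0.1) scales, *Piwil2* was -0.050 and -0.051, *Tdrd9* -0.14 and -0.15, *Ddx4* -0.030 and -0.031 and *Asz1* -0.22 and -0.23, all with the sign changed. *Tdrd1* was called there at -0.47 and -0.48, and *Mael* was not, at 0.12 on both. *Asz1* was -0.030 with no scaling, and *Ddx4* (0.24) and *Mov10l1* (0.27) were called with DESeq2 on all genes. Without 1 library, *Piwil1* was -0.86 to -0.45, *Piwil2* 0.14 to 0.32, *Piwil4* -0.93 to -0.56, *Tdrd1* -0.32 to -0.16, *Tdrd5* -0.74 to -0.36, *Tdrd9* 0.020 to 0.22, *Ddx4* 0.18 to 0.28, *Mov10l1* 0.20 to 0.34, *Mael* 0.33 to 0.37 and *Asz1* -2.2e-05 to 0.11.

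The replicate numbers did not pair the libraries: same-numbered wild-type and null libraries had correlations of deviations of -0.012, -0.0892 and -0.168, none was the highest for its number, and no null library has number 4. With the replicate number as a block, 109 genes were called, among them 0 members higher, 0 members lower, 2 other pathway genes higher and 0 lower, with *Piwil4* at -0.84, *Tdrd5* at -0.53 and *Mael* at 0.36. With 4 and 3 libraries, a difference under the threshold is not shown to be absent. *Piwil1* rests on 42 to 95 counts per library.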

Other observations

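General Tudor and Argonaute genes, which are not specific to the germ line, were read from the same fit. Among 4 general Tudor genes, 0 were called by edgeR, against 11.1% of all tested genes, a share that 0 of 4 is near. DESeq2 also called 0, and 0 had an unadjusted edgeR p under 0.05. On the log2(TPM + 1) scale limma called 0, with 2 lower in wild type at an unadjusted p under 0.05. Their log2 fold changes in the edgeR fit, wild type over null, ran from -0.20 (*Tdrd3*) to 0.19 (*Smn1*). Among 4 Argonaute genes, *Ago4* averaged 39.6 CPM in wild type (SD 7.32 over 4 libraries) and 25.0 CPM in null libraries (SD 1.69 over 3). It was called higher at 0.67 on the log2 scale (SE 0.15, edgeR adjusted p = 0.0227), and in 2 of the 7 leave-one-out fits. *Ago2* was lowest at -0.47 and was not called (adjusted p = 0.114), with null replicate 2 at 72.5 CPM and the other null libraries at 40.8 and 43.9 CPM.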
